A study of Mus musculus with 14 samples.

Results

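Secreted plasma proteins and apolipoproteins of the yolk sac endoderm were followed through the conversion of mouse embryonic stem cells (ESCs) to extraembryonic endoderm. The 10 genes Afp, Alb, Ttr, Rbp4, Trf, Apoa1, Apoa4, Apob, Apoc1 and Apoe were chosen by their symbols, not by any measured value. Each was found as a single row among the 23174 gene loci of the deposited table, and each is given below for all 14 libraries.

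The visceral endoderm covers the early mouse embryo and does much of the work that the liver takes over later. It takes up maternal protein and lipid at its outer face and secretes carriers of lipid, retinol, thyroid hormone and iron toward the embryo. Many of these genes are used again by fetal hepatocytes, and in the textbook account the forkhead factors FOXA, together with HNF1 and HNF4, act on several of their promoters. Extraembryonic endoderm (XEN) cells are stem cell lines of the yolk sac lineage, which in culture carry features of both visceral and parietal endoderm.

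The course used 4 ESC lines on a 129S1/SVImJ background at 3 stages, with 1 library for each line and stage. WT3 was wild type, KO3.34 and KO2.6 lacked Zfp281, which encodes a zinc finger transcription factor, and Rescue3.34 was KO3.34 with Zfp281 put back. WT3 and Rescue3.34 together are called the Zfp281-present lines. Stage ESC (passage 0) was undifferentiated culture in serum and leukemia inhibitory factor. Stage cXENp1 followed 48 hours in XEN medium with 10 ng/mL of activin A and 0.01 µM of all-trans retinoic acid. Stage cXENp3 was reached by way of a passage on fibroblast feeders and then gelatin in XEN medium, with no further retinoic acid or activin named. XENB1 (129S1) and XEN5 (129S1/SVImJ) were established wild-type XEN lines grown without feeder cells in medium conditioned by embryonic fibroblasts. The series title names the question, whether Zfp281 is a barrier between ESC and XEN.

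Values were FPKM, fragment numbers divided by transcript length and by library size, of unknown depth, and between 14972 and 16831 loci were above 0 per library. Zfp281 had 25.1 to 38.6 FPKM in the Zfp281-present lines, at most 3.96 in the KO lines and 10.6 and 12.5 in XENB1 and XEN5. XEN markers (8 genes, among them Gata4 and Sox17) summed to 54.0 FPKM in KO2.6 ESCs against 1.31 to 7.09 in the other ESC libraries. Descriptions of the ESC libraries of WT3, Rescue3.34 and KO3.34 start with JH and all others with XH; what the prefix marks is not stated in the sources used here, so outside KO2.6 the ESC stage and the prefix cannot be told apart. No label gives independent cultures of a line, so a p-value below measures only the spread between libraries of different lines. Where the line is a block, it measures how the stage change varies between lines. Each KO or Zfp281-present range at a stage holds 2 libraries, and the share of all genes whose ranges do not overlap was not computed. A gene was tested if it had 1 FPKM or more in 2 libraries or more of a fit, differences are on the log2(FPKM + 1) scale, which understates the change of low genes, and a call means a limma adjusted p under 0.05 over all genes tested.

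The stretch of 250 bases before the transcription start is shown for Afp, Alb, Apoa1, Apob, Rbp4 and Apoe, because these windows hold the letters searched for and belong to members that behaved differently. Sequences are from RefSeq, build GRCm38.p6, written 5′ to 3′ on the gene's own strand. Capitals mark matches on either strand to the FOXA letters TGTTTAC or TGTTTGC, to the HNF1 letters GTTAAT, or to GGGGGAGGG, a G-rich run of the kind ZFP281 binds.
Afp, chr5:90490464-90490713, plus strand: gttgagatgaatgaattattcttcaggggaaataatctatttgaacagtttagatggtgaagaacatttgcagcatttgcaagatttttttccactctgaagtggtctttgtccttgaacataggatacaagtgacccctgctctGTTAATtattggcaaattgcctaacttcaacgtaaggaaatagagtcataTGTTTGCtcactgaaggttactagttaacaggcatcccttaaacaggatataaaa
Alb, chr5:90460620-90460869, plus strand: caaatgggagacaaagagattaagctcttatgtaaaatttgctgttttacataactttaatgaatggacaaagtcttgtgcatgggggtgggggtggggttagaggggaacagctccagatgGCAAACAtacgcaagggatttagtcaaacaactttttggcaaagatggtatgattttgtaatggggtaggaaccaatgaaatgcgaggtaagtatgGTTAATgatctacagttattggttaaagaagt
Apoa1, chr9:46228380-46228629, plus strand: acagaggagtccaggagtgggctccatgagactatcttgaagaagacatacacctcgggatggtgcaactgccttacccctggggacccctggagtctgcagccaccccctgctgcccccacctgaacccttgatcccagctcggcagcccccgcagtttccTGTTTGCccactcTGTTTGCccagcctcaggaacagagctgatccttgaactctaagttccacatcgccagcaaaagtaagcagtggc
Apob, chr12:7977427-7977676, plus strand: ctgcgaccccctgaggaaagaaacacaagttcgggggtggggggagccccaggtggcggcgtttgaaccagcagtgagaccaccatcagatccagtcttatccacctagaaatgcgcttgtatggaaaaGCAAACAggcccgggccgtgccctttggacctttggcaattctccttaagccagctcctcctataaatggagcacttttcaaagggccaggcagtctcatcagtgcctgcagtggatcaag
Rbp4, chr19:38124812-38125061, minus strand: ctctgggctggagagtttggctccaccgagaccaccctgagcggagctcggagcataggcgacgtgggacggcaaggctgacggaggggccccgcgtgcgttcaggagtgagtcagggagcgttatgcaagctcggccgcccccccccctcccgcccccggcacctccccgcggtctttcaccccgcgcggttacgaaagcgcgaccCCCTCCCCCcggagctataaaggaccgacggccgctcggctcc
Apoe, chr7:19699189-19699438, minus strand: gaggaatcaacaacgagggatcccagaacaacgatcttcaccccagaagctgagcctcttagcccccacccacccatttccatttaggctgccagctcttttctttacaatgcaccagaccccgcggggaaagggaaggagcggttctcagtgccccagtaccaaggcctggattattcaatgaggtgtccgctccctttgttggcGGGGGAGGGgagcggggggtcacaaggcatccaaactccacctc
Afp and Alb lie side by side on chromosome 5, and both windows carry FOXA and HNF1 letters. Apoa1 carries the FOXA letters at 2 places, 75 and 88 bases before the start. The G-rich run stands 43 bases before the start in this Rbp4 window and 44 bases before it in this Apoe window.

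Promoter windows were searched for 7 of the 10 members, 10 windows in all, since Apoe has 3 listed starts and Rbp4 has 2. Trf and Apoc1 had no entry. Ttr was not searched, because member windows on chromosome 18, where it lies, were left out. FOXA letters were present in 5 of the 10 windows, against 7.29% of all 32851 promoter windows of this length. HNF1 letters were present in 3 of 10 (background 6.43%) and the G-rich run in 2 of 10 (background 4.65%). The HNF4 letters CAAAGTCCA (background 0.384%) and the GATA letters AGATAA or TGATAA (background 16.6%) were in none of the 10. No matches of different motifs overlapped in these windows. A match describes letters in a window and is no binding site, and a missing match says nothing of the factor.

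Levels differed widely among the members. Apoe had the highest level of the 10 in 13 libraries, with 36.3 to 1779 FPKM, and Rbp4 reached 457 FPKM in XEN5. Apoc1 reached 116 FPKM, Ttr 72.6 and Trf 16.4. At the low end, Apoa1 reached 7.02 FPKM, Apob 2.89 and Afp 1.33, and Apoa4 and Alb stayed under 1 FPKM in every library. Together the 10 genes took 0.0147% to 0.277% of a library's FPKM sum, and Apoe with Apoc1 made up 98.0% to 99.2% of that in ESCs against 75.5% in XENB1 and 6.40% in XEN5, where Apoc1 is listed at 0.

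**Figure D1:**
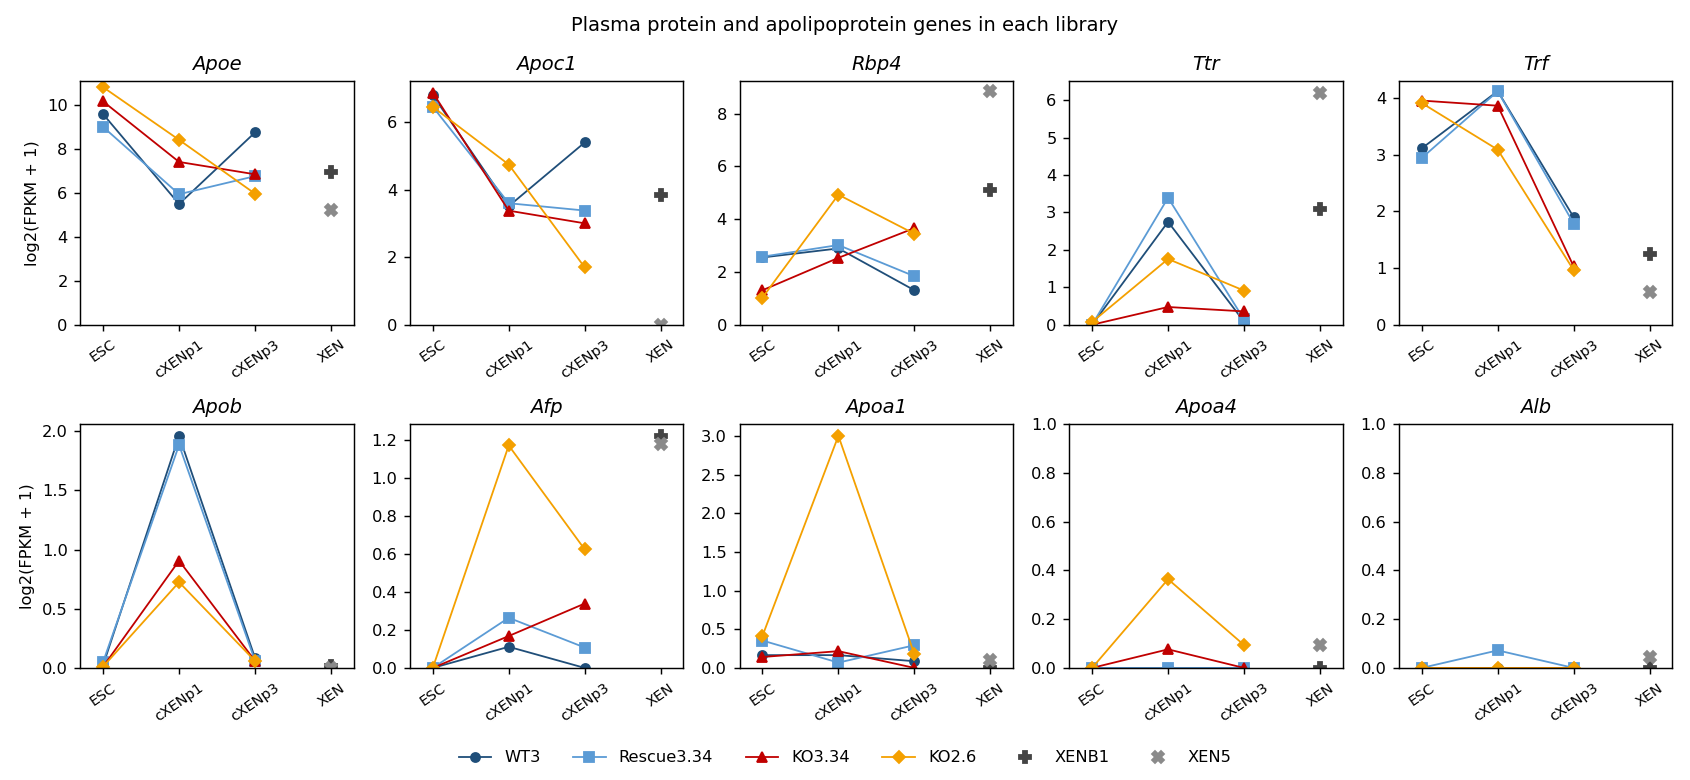
Level of each of the 10 genes on the log2(FPKM + 1) scale, 1 point per library, by stage on the x axis; lines join the 3 stages of a cell line, and the y axis differs between panels. Apoe, Apoc1 and Trf are highest in ESCs or at cXENp1 and Rbp4, Ttr and Afp in XEN lines, while Apob peaks at cXENp1 and Alb and Apoa4 stay near 0.

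Apoe and Apoc1 encode exchangeable apolipoproteins; APOE is a ligand for lipoprotein receptors and APOC1 hinders lipid uptake and exchange. Both were high in ESCs and were called lower in every later comparison with ESCs but 1. In the Zfp281-present lines at cXENp3 both were lower without a call. Their loci (Apoe XLOC_018723, chr7:20281593-20284515; Apoc1 XLOC_018722, chr7:20274830-20278007; build mm9) lie 3.58 kb apart. In ESCs, Apoe had 760.1, 508, 1134 and 1779 FPKM in WT3, Rescue3.34, KO3.34 and KO2.6. At cXENp1 it had 43.8, 60.0, 168 and 337 FPKM in the same order. The ranges do not overlap, and every line was lower at cXENp1, while the KO lines kept the higher values at both stages. At cXENp3, Apoe had 427, 107, 113 and 61.0 FPKM, again in this order, beside 121 in XENB1 and 36.3 in XEN5. WT3 stood apart above the other 5 libraries, and Rescue3.34 lay within the KO and XEN values.

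Apoc1 had 109.6, 86.4, 116 and 86.2 FPKM in the ESCs of WT3, Rescue3.34, KO3.34 and KO2.6. It had 10.4, 11.1, 9.37 and 25.7 FPKM at cXENp1, and 41.0, 9.39, 7.0 and 2.24 FPKM at cXENp3, in the same order of lines. XENB1 had 13.4 FPKM, and in XEN5 the gene is listed at 0, which in such a table can be a failed estimate. ESCs again lay above all later libraries, and at cXENp3 WT3 was highest and KO2.6 lowest. In bulk RNA, fewer cells that express a gene and less RNA per cell cannot be told apart.

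XEN lines were compared with ESCs to define the endpoint of the course. Apoe was lower in XEN by a log2 value of -3.80 (SE 0.58, limma adjusted p 0.00167) and Apoc1 by -4.71 (SE 0.87, limma adjusted p 0.00389). Without XEN5, where Apoc1 is listed at 0, its difference was -2.79 (limma adjusted p 0.00289), with XENB1 as the lone XEN library. Trf was lower too, and Rbp4, Ttr and Afp were higher; among all 12372 genes tested 41.9% were called, 22.2% higher and 19.7% lower. Ttr and Afp entered this test only through their XEN libraries and so had to differ, and the 3 against 3 split is therefore no evidence of a direction. Apoa1, Apoa4, Apob and Alb were not tested there.

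The step from ESC to cXENp1, tested with the line as a block, gave Apoe a change of -3.07 (SE 0.71, limma adjusted p 0.0127) and Apoc1 one of -2.83 (SE 0.61, limma adjusted p 0.00999). Besides these, Ttr and Apob were called higher, and Rbp4 and Trf were not called, where 28.5% of 13191 genes were called, 14.7% higher and 13.8% lower. With the description prefix as a term none of the 4 was called (limma adjusted p 0.115 for Apoe and 0.134 for Apoc1, with 4 members at an unadjusted p under 0.05), and all genes called fell to 439. In KO2.6, the only line with a single prefix, Apoe went from 1779 to 337 FPKM and Apoc1 from 86.2 to 25.7. Leaving out Rescue3.34 likewise ended both calls (limma adjusted p 0.0692 and 0.0607), as did leaving out KO3.34 (0.0669 and 0.0739).

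From ESC to cXENp3 the KO lines were lower in Apoe by -4.08 (SE 0.60, limma adjusted p 0.000693) and in Apoc1 by -4.31 (SE 0.65, limma adjusted p 0.000767). Rbp4 and Trf were called as well, so that 4 members were called where 47.8% of all genes were, 25.5% higher and 22.3% lower (3366 and 2941 genes, or 2805 and 3555 after quantile normalization). In the Zfp281-present lines no member was called, with Apoe at -1.53 (limma adjusted p 0.221) and Apoc1 at -2.23 (0.126); these were -0.83 and -1.40 without Rescue3.34 and -2.24 and -3.07 without WT3, with no call. There were 3 members (Apoc1, Apoe and Trf) at an unadjusted p under 0.05 in limma with all lines, and 1.30% of all genes were called, 0.561% higher and 0.735% lower. The interaction, which tests whether the KO difference at cXENp3 departs from that in ESCs, was -2.54 for Apoe (SE 0.85, limma adjusted p 0.0560) and -2.07 for Apoc1 (SE 0.92, limma adjusted p 0.126). Neither passed the threshold, but that of Apoe was called after quantile normalization (-2.47, limma adjusted p 0.0471) and without KO3.34 (-3.31, limma adjusted p 0.0495), while it was -1.78 without KO2.6 (limma adjusted p 0.276). That of Apoc1 was not called in any fit without 1 line (-1.24 to -2.91).

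Within a stage, KO minus Zfp281-present for Apoe was 1.19 in ESCs (SE 0.60, limma adjusted p 0.292), 2.19 at cXENp1 (SE 0.60, limma adjusted p 0.173) and -1.35 at cXENp3 (SE 0.60, limma adjusted p 0.0960). None passed. The KO range lay wholly above the Zfp281-present range in ESCs and at cXENp1, with 2 libraries in each range. No member was called in ESCs, where 1.97% of 13191 genes were (1.05% higher and 0.917% lower), and 2 members (Rbp4 and Trf) had an unadjusted p under 0.05 in limma. The cXENp3 value for Apoe was -2.34 without Rescue3.34 (limma adjusted p 0.0288) and -0.36 without WT3 (limma adjusted p 0.700). Apoc1 was lower in KO at cXENp3 by -2.04 (SE 0.65, limma adjusted p 0.0303), 5.45-fold between the mean FPKM. This call rested on WT3 and KO2.6, since it was -1.03 without WT3 (limma adjusted p 0.355) and -1.39 without KO2.6 (0.174), and it was not made when every gene above 0 was tested (0.0611). At that stage Rbp4 was called higher and Trf lower, so 3 members were called, 1 higher and 2 lower, where 41.9% of 13191 genes were called, 22.9% higher and 19.0% lower.

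**Figure D2:**
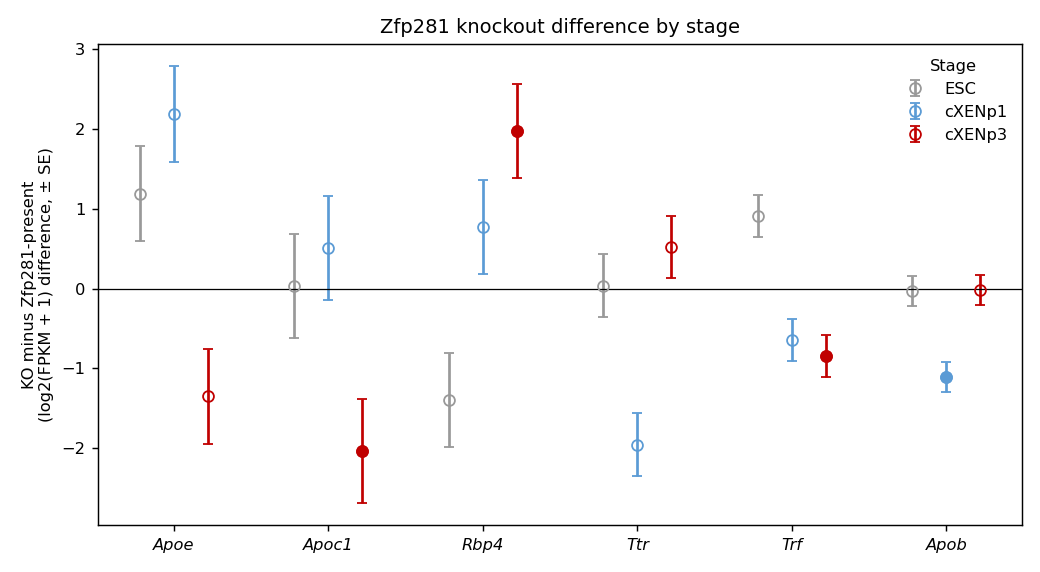
KO minus Zfp281-present difference (log2(FPKM + 1), point with ± 1 SE from limma) at 3 stages for the 6 members tested; filled points are calls at a limma adjusted p under 0.05. At cXENp3 Rbp4 is called higher (1.98) and Apoc1 (-2.04) and Trf (-0.85) lower, at cXENp1 Apob alone is called (-1.11), and none is called in ESCs.

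Pluripotency markers (8 genes, among them Pou5f1 and Nanog) summed to 6632 to 9547 FPKM in ESCs and 308 to 1058 at cXENp1. At cXENp3 they summed to 7069, 3778, 917 and 187 FPKM in WT3, Rescue3.34, KO3.34 and KO2.6, and to 26.2 in XENB1 and 0.750 in XEN5. All 8 were called lower in XEN and at cXENp1 against ESC, in KO cXENp3 against ESC and in KO against Zfp281-present cXENp3, and none was called between Zfp281-present cXENp3 and ESC. The Pearson r of Pou5f1 over the 14 libraries, looked up after the values were seen, was 0.76 with Apoe and 0.81 with Apoc1. Their part in the Apoe and Apoc1 differences was not tested.

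Macrophages and fibroblasts also make Apoe, and their markers were examined beside it. Macrophage markers (9 of a list of 10 in the table) summed to 7.49 to 24.3 FPKM in ESCs and 1.30 to 7.72 at cXENp1. They summed to 5.70 to 12.6 in Zfp281-present and 24.9 to 32.2 in KO cXENp3, and to 65.4 to 168 in XEN lines. Most of the ESC sum was Cd68; the complement gene C1qa was listed at 0 in every ESC and cXENp1 library. Feeder fibroblast markers (10 genes, led by collagens) summed to 7.09 to 20.5 FPKM in ESCs and 18.2 to 75.1 at cXENp1. At cXENp3 they summed to 37.6 in WT3, 1278 in Rescue3.34 and 289 to 374 in the KO lines, and to 560.2 to 646 in XEN. The part of macrophages or fibroblasts in the Apoe levels, or in any difference at any stage, was not tested.

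The other genes beside Apoe had narrower or lower ranges. Apoc4 and Apoc2, further along the cluster, stayed at or below 0.20 and 2.14 FPKM. Tomm40, which encodes a channel of the mitochondrial outer membrane and whose locus lies 2.15 kb from that of Apoe, lay between 49.6 and 179 FPKM. Like Apoe it was lower at cXENp1 than in ESCs (-1.02, limma adjusted p 0.0191). It was also not called in KO against Zfp281-present at cXENp3 (-0.39, limma adjusted p 0.337). Unlike Apoe it was not called in XEN against ESC (-0.42, limma adjusted p 0.196) or in KO cXENp3 against ESC (-0.42, limma adjusted p 0.281). The Pearson r of Tomm40 with Apoe over the 14 libraries was 0.65. Pvrl2, the next gene, lay between 40.5 and 146 FPKM. Over the 14 libraries Apoe and Apoc1 correlated with a Pearson r of 0.90 on the log2(FPKM + 1) scale. This is a description over libraries that share lines and stages. The ratio of Apoe to Apoc1 ran from 4.23 in WT3 at cXENp1 to 27.2 in KO2.6 at cXENp3, and was higher in the KO lines than in the Zfp281-present lines at each of the 3 stages.

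Rbp4 and Ttr encode the plasma carriers of retinol and thyroxine, which circulate as a complex. Rbp4 (XLOC_010441, chr19:38191110-38199811, mm9) had 4.84 FPKM in WT3 and 4.97 in Rescue3.34 ESCs, and 1.47 and 1.04 in KO3.34 and KO2.6. At cXENp1 it had 6.41, 7.10, 4.79 and 29.4 FPKM in WT3, Rescue3.34, KO3.34 and KO2.6. At cXENp3 it had 1.47 and 2.57 FPKM in WT3 and Rescue3.34 and 11.6 and 9.89 in KO3.34 and KO2.6, beside 33.5 in XENB1 and 457 in XEN5. The KO and Zfp281-present ranges do not overlap in ESCs or at cXENp3, and their order is opposite at these stages. At cXENp1 KO2.6 was far above the other 3 lines, which lay close together, and the KO difference of 0.78 (limma adjusted p 0.702) was 1.97 without KO3.34 (0.0204) and -0.42 without KO2.6 (0.845).

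At cXENp3 Rbp4 was higher in KO by 1.98 (SE 0.59, limma adjusted p 0.0227), 5.32-fold between the mean FPKM. In ESCs the difference was -1.40 (SE 0.59, limma adjusted p 0.212), or -1.54 without KO3.34 (limma adjusted p 0.0203). The interaction was 3.38 (SE 0.83, limma adjusted p 0.0205), so the KO difference at cXENp3 departed from that in ESCs beyond the spread between libraries. Trf was the other member with a called interaction, where 22.6% of all genes were called, 13.7% higher and 8.85% lower (1807 and 1168 genes, or 1403 and 1527 after quantile normalization). The cXENp3 call was lost without WT3 (1.71, limma adjusted p 0.228) or Rescue3.34 (2.25, limma adjusted p 0.0954), and the interaction call likewise (3.13, limma adjusted p 0.227 and 3.63, limma adjusted p 0.149); each of these fits leaves 1 Zfp281-present line, assumed to vary as the others do.

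Within the KO lines, Rbp4 rose from ESC to cXENp3 by 2.39 (SE 0.59, limma adjusted p 0.00845). In the Zfp281-present lines it changed by -0.99 (SE 0.59, limma adjusted p 0.403). Against ESCs, XEN lines were higher by 5.11 (SE 0.95, limma adjusted p 0.00401), and KO cXENp3 lay below XEN by -3.42 (SE 0.97, limma adjusted p 0.0758), which missed the threshold. Without XENB1 that last difference was -5.29 (limma adjusted p 0.00600) and without XEN5 it was -1.56 (limma adjusted p 0.378). The XEN against ESC difference was likewise 6.98 without XENB1 and 3.25 without XEN5, called in both fits (limma adjusted p 0.00176 and 0.0226). The lowest levels were those of KO ESCs and Zfp281-present cXENp3, which overlap, followed by Zfp281-present ESCs and 3 of the cXENp1 libraries, which overlap too. KO cXENp3, KO2.6 at cXENp1, XENB1 and XEN5 followed in that order with no overlap. These comparisons share ESC, cXENp3 or XEN libraries and are not independent of each other.

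Ttr (XLOC_009310, chromosome 18, 20823751 to 20832827, mm9) was listed at 0 in the ESCs of WT3, Rescue3.34 and KO3.34 and had 0.0511 FPKM in KO2.6. At cXENp1 it had 5.72 and 9.51 FPKM in the Zfp281-present lines (WT3 first) and 0.388 and 2.38 in KO3.34 and KO2.6. It then had, at cXENp3, 0.0575 and 0.103 FPKM in WT3 and Rescue3.34 and 0.280 and 0.881 in KO3.34 and KO2.6. XENB1 had 7.45 and XEN5 72.6 FPKM. Zfp281-present lines were thus above KO lines at cXENp1 and below them at cXENp3, with no overlap at either stage, and all 4 cXENp3 values were under 1 FPKM.

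Ttr rose from ESC to cXENp1 by 2.08 (SE 0.48, limma adjusted p 0.0135), but 3 cXENp1 libraries let it into this test. This call was lost without WT3 (1.85, limma adjusted p 0.0567), without Rescue3.34 (1.64, limma adjusted p 0.0708) and with the prefix as a term (2.12, limma adjusted p 0.164). KO minus Zfp281-present was -1.96 at cXENp1 (SE 0.39, limma adjusted p 0.0719) and 0.52 at cXENp3 (SE 0.39, limma adjusted p 0.310). KO cXENp3 lay below XEN by -4.01 (SE 0.76, limma adjusted p 0.0166), the only call among 7 members tested, where 4.12% of all genes were called, 2.64% higher and 1.48% lower (353 and 198 genes, or 251 and 252 after quantile normalization). Leaving out any of the 4 course lines raised its adjusted p to between 0.0700 and 0.0895, with a difference of -3.73 to -4.29. Without XEN5 the difference was -2.45 and without XENB1 -5.57. No ESC library reached 1 FPKM, and the KO difference there (0.04) lies between values at or near 0.

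The 2 XEN lines differed from each other in these carriers and, by the listed values, in Apoc1. Rbp4 was 13.6-fold and Ttr 9.75-fold higher in XEN5 than in XENB1. Apoc1 had 13.4 FPKM in XENB1 and is listed at 0 in XEN5, which can be a failed estimate. These 3 members passed a log2 difference of 2, a limit chosen after the values were seen, where 1.59% of 11598 genes did, 0.483% higher and 1.10% lower. Each XEN line gave 1 library, so the difference has no replicate check. Mttp, which loads lipid onto APOB, was 9.47-fold higher in XEN5 too, at 86.6 against 9.15 FPKM, and Cubn, an uptake receptor of the visceral endoderm, was 5.91-fold higher. Stra6, the membrane receptor of RBP4, had 58.4 FPKM in XENB1 and 210 in XEN5, a difference under that limit. Apoe was 36.3 in XEN5 and 121 in XENB1, and Afp was nearly level at 1.26 and 1.33 FPKM.

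**Figure D3:**
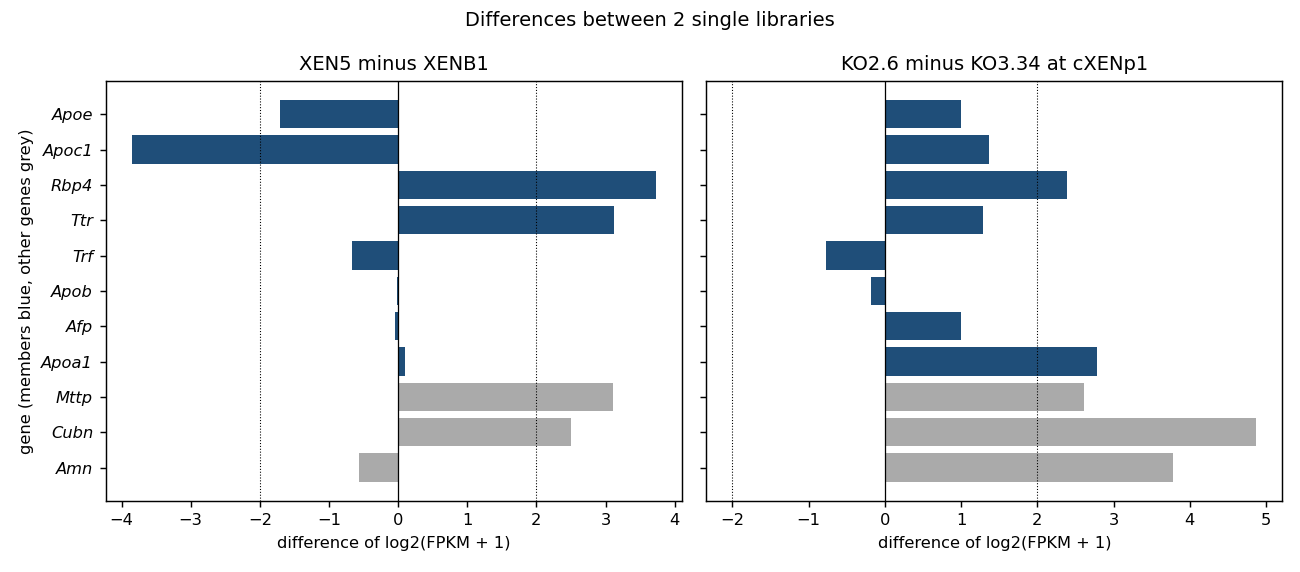
Difference of log2(FPKM + 1) between single libraries, XEN5 minus XENB1 and KO2.6 minus KO3.34 at cXENp1, for 8 members (blue) and 3 genes of lipid assembly and uptake (grey); dotted lines mark a difference of 2. Rbp4 (3.73 and 2.39), Mttp (3.11 and 2.61) and Cubn pass the line in both panels. Ttr and Apoc1 pass it in the XEN panel alone, and Apoa1 and Amn at cXENp1 alone.

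Trf (XLOC_021911, chr9:103111206-103132616, mm9) encodes transferrin, the plasma carrier of iron. It had 7.65 and 6.69 FPKM in WT3 and Rescue3.34 ESCs and 14.5 and 14.1 in KO3.34 and KO2.6. At cXENp1 it had 16.4 FPKM in both Zfp281-present lines, 13.6 in KO3.34 and 7.51 in KO2.6. It then had, at cXENp3, 2.72 and 2.44 FPKM in WT3 and Rescue3.34 and 1.04 and 0.948 in KO3.34 and KO2.6, beside 1.37 in XENB1 and 0.490 in XEN5. The KO lines were above the Zfp281-present lines in ESCs and below them at both later stages, with no overlap at any of the 3.

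Trf was lower in KO at cXENp3 by -0.85 (SE 0.26, limma adjusted p 0.0270), 2.60-fold between the mean FPKM. The difference was 0.91 in ESCs (SE 0.26, limma adjusted p 0.0952) and -0.64 at cXENp1 (SE 0.26, limma adjusted p 0.394), and without KO3.34 both were called (0.89, limma adjusted p 0.0412 and -1.03, limma adjusted p 0.0489). The interaction between ESC and cXENp3 was -1.75 (SE 0.37, limma adjusted p 0.0122). Like those of Rbp4, the cXENp3 call and the interaction call were lost without WT3 (limma adjusted p 0.255 and 0.187) or without Rescue3.34 (0.152 and 0.156), with differences of -0.79 to -0.90 and -1.72 to -1.78. Trf was lower at cXENp3 than in ESCs by -2.94 in the KO lines (limma adjusted p 7.70e-05), and by -1.19 in the Zfp281-present lines (limma adjusted p 0.0622, or 0.0282 and 0.0254 without KO3.34 and KO2.6, which share the spread). It was lower in XEN than in ESC by -2.57 (SE 0.39, limma adjusted p 0.00162), and KO cXENp3 lay within the XEN values. From ESC to cXENp1 the change was 0.32 (SE 0.36, limma adjusted p 0.536), and -0.70 with the prefix as a term.

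Apob (XLOC_004084, chr12:7984483-8023645, mm9) encodes the structural protein of very low and low density lipoproteins. It was at most 0.035 FPKM in ESCs, at most 0.060 at cXENp3 and at most 0.0109 in XEN, and it rose at cXENp1 alone. There it had 2.89 and 2.69 FPKM in WT3 and Rescue3.34, and 0.873 and 0.652 in KO3.34 and KO2.6. All 4 lines were above their own ESC and cXENp3 values, and the Zfp281-present lines were above the KO lines with no overlap.

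Apob rose from ESC to cXENp1 by 1.34 (SE 0.26, limma adjusted p 0.00639), or by 1.03 with the prefix as a term (limma adjusted p 0.180). At cXENp1 it was lower in KO by -1.11 (SE 0.19, limma adjusted p 0.0413), 3.66-fold between the mean FPKM, and was the only member called of 6 tested, where 0.485% of all genes were called, 0.364% higher and 0.121% lower (48 and 16 genes, or 64 and 36 after quantile normalization). Since only the 2 Zfp281-present cXENp1 libraries reached 1 FPKM, Apob entered every course test through the libraries in which it was high and had to differ. The KO call was lost with a pseudocount of 0.1 (limma adjusted p 0.236) and without KO2.6 (0.250), and without WT3 or Rescue3.34 the gene was no longer tested. Mttp had 5.26, 3.40, 2.55 and 20.6 FPKM at cXENp1 in WT3, Rescue3.34, KO3.34 and KO2.6, so its highest library was the one with the lowest Apob.

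Apoa1 and Apoa4 encode apolipoproteins of high density lipoproteins and chylomicrons, and lie in 1 cluster on chromosome 9 with Apoc3 and Apoa5. Apoa1 (XLOC_021011, chr9:46036713-46038549, mm9) had 7.02 FPKM in KO2.6 at cXENp1 and at most 0.332 FPKM in the other 13 libraries. Apoa4 (XLOC_021012, chr9:46048927-46051541, mm9) was listed at 0 in 10 libraries and was highest in that library as well, at 0.287 FPKM. Apoc3 was listed at 0 in all 14 and Apoa5 was at most 0.178 FPKM. None of these 4 genes was tested in any comparison.

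Afp encodes the fetal counterpart of albumin and is a classic product of visceral endoderm. Afp (XLOC_015291, chr5:90919740-90937933, mm9) was listed at 0 in all 4 ESC libraries. It had 0.0802, 0.201, 0.123 and 1.25 FPKM at cXENp1 and 0, 0.0774, 0.265 and 0.542 FPKM at cXENp3 in WT3, Rescue3.34, KO3.34 and KO2.6, and 1.33 and 1.26 FPKM in XENB1 and XEN5. The KO lines were above the Zfp281-present lines at cXENp3, all under 1 FPKM. XEN exceeded ESC by 1.20 (SE 0.19, limma adjusted p 0.00187), through the only 2 libraries that let it into that test, and KO cXENp3 differed from XEN by -0.72 (SE 0.28, limma adjusted p 0.184).

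Alb (XLOC_015290, chr5:90889915-90905629, mm9), which encodes serum albumin, lies 14.1 kb from Afp. It was listed at 0 in 12 libraries and reached 0.0512 FPKM at most, in Rescue3.34 at cXENp1. Its neighbour Afm was at most 0.174 FPKM. Gc, the vitamin D carrier of the same family, reached 3.08 FPKM in KO2.6 ESCs and at most 0.750 FPKM elsewhere. Of 10 hepatocyte markers (urea cycle, amino acid and drug metabolism), 1 or 2 reached 1 FPKM in any library.

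KO2.6 at cXENp1 was the highest cXENp1 library for Afp, Apoa1, Apoa4, Apoc1, Apoe and Rbp4. Compared with KO3.34 at the same stage, Apoa1 was 43.3-fold and Rbp4 6.14-fold higher, the only members past a log2 difference of 2, which 1.27% of 12289 genes passed (0.903% higher and 0.366% lower). Among the genes of uptake, Cubn had 113 FPKM in KO2.6 and 2.89 in KO3.34, and Amn, its membrane anchor, 41.5 and 2.11. Mttp was 8.08-fold higher. Apob and Trf were lower in KO2.6, at 0.652 against 0.873 and 7.51 against 13.6 FPKM. This compares 2 libraries, and the KO lines as a group cannot be read from it. XEN markers summed to 451 FPKM in KO2.6 and 42.0 to 54.0 in the other 3 cXENp1 libraries, and parietal endoderm markers (11 genes) to 2879 against 439 to 622. Their part in the member values was not tested.

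The members were set beside the markers of the cell types whose products they are. Of 12 visceral endoderm markers 11 were tested in KO against Zfp281-present at cXENp3, of which 6 were higher and 3 lower, beside 22.9% and 19.0% of all genes; the highest rises were Foxa2 (6.03), Cubn (3.79), Spink3 (3.72) and Lrp2 (2.75), and Amn and Lhx1 were not called. The 3 lower ones were Otx2 (-1.36), Cdh1 (-1.20) and Hhex (-1.06). The sum of the 12 markers was 89.6 to 158 FPKM in Zfp281-present and 194 to 292 in KO cXENp3. It was 269.6 to 378 in XEN. In ESCs it was already 181 to 214 in the Zfp281-present lines and 111 to 112 in the KO lines. At cXENp1 it was 92.1 to 169 and 223 to 413 in the same order. Cer1 was at most 0.197 FPKM in any library and Otx2 was listed at 0 in both XEN lines. Parietal markers summed to 276 to 1156 FPKM in Zfp281-present cXENp3, 3998 to 5130 in KO cXENp3 and 3284 to 4300 in XEN. The basement membrane genes Sparc, Lama1, Col4a1 and Col4a2 are listed at 0 in the KO cXENp3 and XEN libraries, which can be failed estimates, so those parietal sums are without them. As a set the 10 genes did not mark the XEN lines: Rbp4, Ttr and, at a low level, Afp were higher there than in ESCs, Apoe, Apoc1 and Trf were lower, and Apob, Apoa1, Apoa4 and Alb were at or near 0.

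Other genes of lipoprotein assembly, remodelling and uptake moved both ways at cXENp3. Of 33 genes, 24 were tested in KO against Zfp281-present, with 7 higher and 5 lower, a share near the 41.9% of all genes called; their median was 0.44 beside 0.01 over all genes. Dab2, an adaptor for endocytosis, was higher by 4.48 (limma adjusted p 0.0127), the uptake receptors Cubn by 3.79 (0.0265) and Lrp2 by 2.75 (0.00136), and the cholesterol exporter Abca1 by 2.82 (0.00435). Lrp1, an endocytic receptor that binds APOE, was abundant and not called (0.41). In XEN against ESC 23 were tested, with 10 higher and 2 lower, beside 22.2% and 19.7% of all genes. Mttp was called there (3.32, limma adjusted p 0.0105) but not at cXENp3 (1.23, limma adjusted p 0.149). These lists overlap with the visceral markers in Cubn, Lrp2 and Amn.

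Most other plasma protein genes were silent or near it. Of 39 genes, 26 stayed under 1 FPKM in every library and 7 were tested in KO against Zfp281-present at cXENp3, with 1 higher and 1 lower, where 41.9% of all genes were called. A2m, a protease inhibitor of plasma, was lower in KO by -3.71 (SE 0.45, limma adjusted p 0.000390), with 17.7 and 10.2 FPKM in WT3 and Rescue3.34 against 0.120 and 0.0909 in KO3.34 and KO2.6. Fetub was higher by 0.91 (limma adjusted p 0.0264). Both were already called in KO ESCs, A2m at -2.85 (limma adjusted p 0.0226) and Fetub at 2.46 (limma adjusted p 0.0101). The interaction was not called for A2m (-0.86, limma adjusted p 0.354). For Fetub it was called at -1.55 (limma adjusted p 0.0236), so its KO difference was smaller at cXENp3 than in ESCs. Igf2 (-1.70, limma adjusted p 0.374) and Serpinf1 (1.54, limma adjusted p 0.0860) were not called; Igf2 had 358 FPKM in Rescue3.34, the library with the high fibroblast sum, and 3.56 in WT3.

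Partners of the retinol and iron carriers were also followed. Of 17 genes 12 were tested at cXENp3, with 2 higher and 2 lower in KO, where 41.9% of all genes were called, and the median was 0.16. Stra6 was at most 0.251 FPKM in ESCs and between 11.2 and 38.6 at cXENp1 in all 4 lines. At cXENp3 it had 0.203 and 0.419 FPKM in WT3 and Rescue3.34 and 39.5 and 36.7 in KO3.34 and KO2.6, a difference of 4.90 (SE 0.31, limma adjusted p 1.51e-05). The receptor was thus high in the same cXENp3 libraries as its ligand gene Rbp4. Slc11a2, an importer of iron, was higher by 1.60 (limma adjusted p 0.000502). The transferrin receptor gene Tfrc was lower by -1.65 (limma adjusted p 0.0496), in the direction of Trf, and the retinoic acid binding protein gene Crabp1 by -2.35 (0.00743). The ferritin genes Fth1 and Ftl1 were not called.

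Of 30 endoderm factors and regulators of these genes, 24 were tested at cXENp3, with 9 higher and 2 lower in KO and a median of 0.76; the 11 called are a share near the 41.9% of all genes. Gata4 (7.83), Sox17 (6.89), Sox7 (6.06) and Foxa2 (6.03) had the highest rises. Foxa2 was 0.0801 and 0.0773 FPKM in WT3 and Rescue3.34 and 62.4 and 77.7 in the KO lines at cXENp3. At cXENp1 it was 3.90, 23.7, 7.42 and 18.9 FPKM in WT3, Rescue3.34, KO3.34 and KO2.6. Hnf4a was low throughout, at 7.54 and 12.5 FPKM in XENB1 and XEN5 and, at cXENp3, 3.99 in KO3.34 and 3.37 in the other KO line. The libraries with the most Foxa2 were the KO cXENp3 and XEN libraries. Of the 5 members with FOXA letters in a window, Apob, Apoa1 and Alb were each at most 0.131 FPKM there and Afp at most 1.33. Rbp4, whose other listed start has the letters 241 bases before it, had 9.89 to 457 FPKM. The other forkhead genes of the list moved otherwise. From ESC to cXENp1 Foxa1 was higher by 4.02 (limma adjusted p 2.90e-05) and Foxa3 lower by -0.80 (limma adjusted p 0.0285). Neither was called in KO against Zfp281-present at cXENp3 (-0.63 and -0.49, limma adjusted p 0.112 and 0.145). Any part of Foxa1, Foxa2 or Foxa3 in these levels was not tested. The sterol factors Srebf1 (0.63) and Srebf2 (-0.46) were not called.

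The 3 genes with the most similar course over the 14 libraries were sought for each member among all genes kept, by Pearson r on the log2(FPKM + 1) scale, as a description over libraries that share lines, stages and processing. Rbp4 was followed most closely by Mttp (r 0.98, or 0.94 without the 2 libraries farthest from the median of Rbp4), Dtnbp1 (0.95) and Habp2 (0.95). Afp was followed by Mia2 (0.96), Cited1 (0.94) and Ihh (0.93), and Ttr by Rfx6 (0.92), Cpxm1 (0.90) and Tspan3 (0.90). Apob was followed by Chrna3 (0.99), Kynu (0.99) and Chrdl1 (0.98). Apoe was nearest to Gadd45gip1 (0.95), Osgep (0.95) and Sigirr (0.94), and Apoc1 to Rps2 (0.97), Ano9 (0.96) and Sigirr (0.96), so that both share 1 of their 3 nearest genes. Trf was nearest to Zfp599 (0.94), Flywch2 (0.93) and Acsl6 (0.92). For Apoa1 the nearest were Iqcf1 (0.88), Apom (0.85) and Amn (0.83), but without the 2 farthest libraries r was 0.30, 0.19 and 0.13, so these rest on KO2.6 at cXENp1. Apoa4 and Alb were too low for this.

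**Figure D4:**
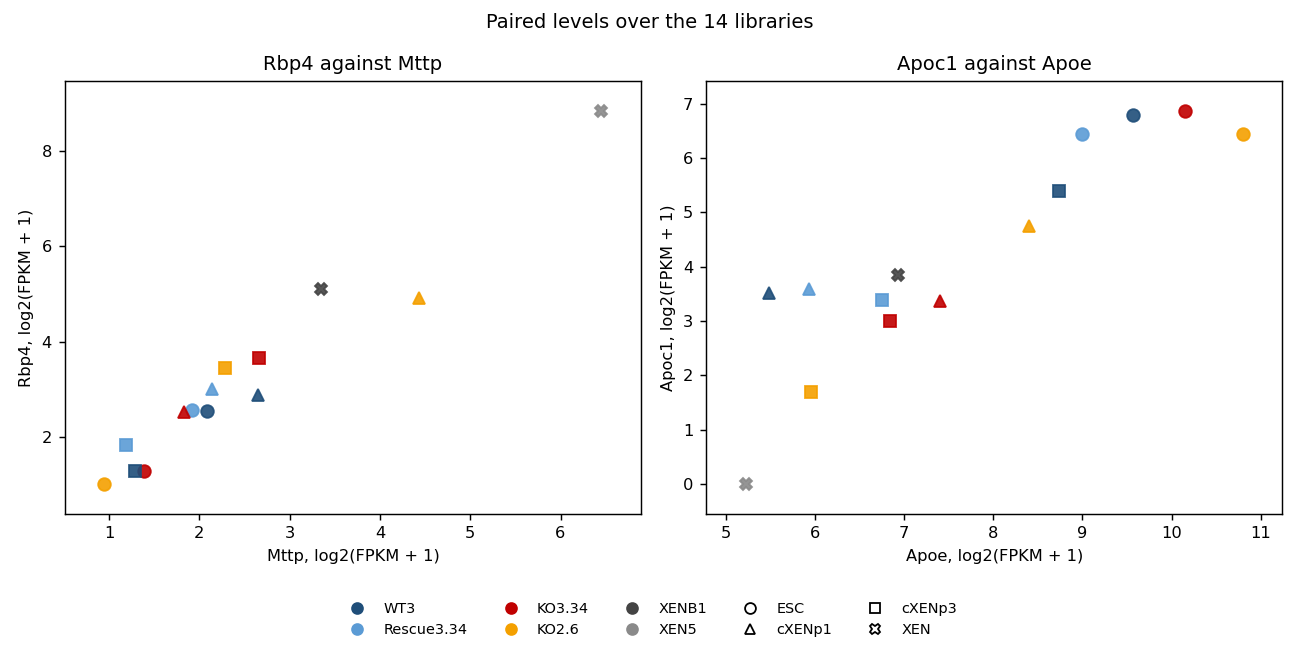
Rbp4 against Mttp and Apoc1 against Apoe in the 14 libraries, log2(FPKM + 1) on both axes; colour gives the line and marker shape the stage. Rbp4 and Mttp (r 0.98) are both highest in XEN5, and Apoc1 and Apoe (r 0.90) are both high in the 4 ESC libraries.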

How the data were processed

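PolyA RNA was sequenced as paired reads of 150 bp, per the labels' protocols. STAR 2.5.3, Cufflinks 2.1.1 and build mm9 are named in the submitters' processing notes. The authors deposited a table of values per gene locus, taken here as FPKM because the notes name Cufflinks and the values are not whole, with sums of 424406 to 718138 per library. It holds no counts, so depth and counting error are unknown. Starts were shifted by 1 to count from 1.

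Models were fitted with limma 3.58.1 in R 4.3.3 (lmFit, eBayes with trend) on log2(FPKM + 1), for genes at 1 FPKM or more in at least 2 fitted libraries, with Benjamini-Hochberg adjustment over all genes kept. XEN lines were compared with ESCs in their own fit (2 against 4 libraries), cXENp1 with ESC over 12 libraries with line as a block, and KO with Zfp281-present lines in 6 groups of 2 sharing 1 spread; KO cXENp3 against XEN used 7 groups of 2. The line pairs the stages, as each of the 4 lines gave 1 library per stage. The fits were tested on simulated data. No 2 libraries held identical values. The titles call a KO line 2.6 and its cell line field differs; the title was used.

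The members and lists were chosen with earlier results of these data known. Named genes are Zfp281, the 10 members, their cluster neighbours, the 3 most similar genes per member, and from each list up to 4 called genes with the largest difference at cXENp3 and up to 2 abundant ones not called. The result of 1 gene that this rule selects is not reported here. Others named (Mttp, Stra6, Cubn, Amn, Foxa1, Foxa2, Foxa3, Hnf4a, Otx2, Cdh1, Hhex, Igf2, C1qa, Cd68, Gc, Apoa2 and genes listed at 0) were partly chosen after their values were seen. Alternatives were a pseudocount of 0.1, other filters, quantile normalization, eBayes without trend, the description prefix as a term, other blocks, and leaving out each line. Promoter sequences came from RefSeq on GRCm38.p6 and were not combined with mm9 positions.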

Additional observations from a re-analysis of the deposited data

Results flagged for a closer look

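Among the 4 libraries of cXENp1, KO2.6 lay far from the other 3 lines for Afp (1.25 FPKM), Apoa1 (7.02 FPKM) and Apoc1 (25.7 FPKM), by a gap that Dixon's test puts above its 95% value. These are 3 of 16 groups of 4 libraries tested, of which chance alone would pass about 1 in 20, and they come from 1 library. XEN markers summed to 451 FPKM in that library against 42.0 to 54.0 in the other 3, and their part was not tested.

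The KO difference departed between ESC and cXENp3 for Rbp4, by an interaction of 3.38, and for Trf, by one of -1.75, at limma adjusted p 0.0205 and 0.0122. Rbp4 went from lower to higher in the KO lines and Trf from higher to lower. Neither was called without WT3 (limma adjusted p 0.227 and 0.187) or without Rescue3.34 (0.149 and 0.156), where 1 and 97 of all genes were called against 2975 with all lines.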

How the results depend on the processing

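Over 556 recomputed member differences, 501 kept their direction and their side of the threshold, 27 lost and 12 gained a call, and 16 changed sign. All 67 in XEN against ESC kept both. Leaving out 1 line accounted for 21 of the 27 and 9 of the 12.

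Members called ranged, without 1 line, from 0 to 4 in cXENp1 against ESC, 0 to 2 for KO in ESCs, 0 to 3 for KO at cXENp1, 0 to 3 for KO at cXENp3, 0 to 3 in the interaction, 0 to 1 in Zfp281-present cXENp3 against ESC and 0 to 2 in KO cXENp3 against XEN. All genes called for KO at cXENp3 ranged from 1057 (without WT3) to 6150 (without KO3.34) in the same fits. A mean of at least 5 FPKM gave 2 in cXENp1 against ESC and 0 for KO at cXENp1, where only 4 members were tested; the prefix as a term gave 0 in cXENp1 against ESC; a pseudocount of 0.1 gave 0 for KO at cXENp1, with 4 members at an unadjusted p under 0.05 in limma, and 1 in Zfp281-present cXENp3 against ESC. The cause was not tested.

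None of the differences that changed sign was a call with all libraries. With quantile normalization Apoc1 in ESCs was -0.10, Apob at cXENp3 was 0.012, Apob from ESC to cXENp3 was -0.039 in KO and -0.13 in Zfp281-present lines, and Apob and Trf in KO cXENp3 against XEN were -0.043 and -0.15. With the prefix as a term Trf at cXENp1 against ESC was -0.70. Without 1 line, the KO difference of Apoc1 in ESCs ran from -0.17 (KO3.34 left out) to 0.25 (KO2.6), and was -0.13 without Rescue3.34; at cXENp1 it ran from -0.18 (KO2.6) to 1.19 (KO3.34), and that of Rbp4 from -0.42 to 1.97 in the same fits. In KO cXENp3 against XEN, Apoc1, Apoe and Trf ran from -1.50, -0.54 and -0.25 (XEN5 left out) to 2.35, 1.17 and 0.42 (XENB1), and Apoc1 and Apoe were -0.23 and -0.12 without KO3.34.

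Quantile normalization moved the median of all genes by over 0.1 in KO at cXENp3, from 0.01 to -0.10, in KO cXENp3 against ESC, from 0.00 to -0.15, and in the interaction, from 0.06 to -0.07; higher and lower calls at cXENp3 went from 3016 and 2512 to 2587 and 3101. With line as a replicate block the Rbp4 interaction had a limma adjusted p of 0.0251 and that of Trf 0.0150, and neither this block nor leaving it out of cXENp1 against ESC changed a call. Depth is unknown, so the precision of Afp, Apob, Apoa1, Apoa4 and Alb, most of whose values lie under 1 FPKM, cannot be stated.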

Other observations

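Apoa2, a further apolipoprotein of high density lipoproteins that was picked out after its values were seen, differed between the KO lines. It had 15.2, 6.04 and 7.46 FPKM in KO3.34 at ESC, cXENp1 and cXENp3, and 0, 0.320 and 0.200 FPKM in KO2.6. Rescue3.34, made from KO3.34, had 0.818, 0.457 and 0 FPKM, and WT3 had 1.18, 3.65 and 0.346. XENB1 and XEN5 had 2.29 and 1.28 FPKM. The 2 KO lines thus lay at opposite ends of the course libraries at ESC and cXENp1.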
